A study of Mus musculus with 12 samples.

Results

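Enteric neurons are told from the other cells of the gut wall by genes that most neurons share, such as those of the neuronal cytoskeleton, of vesicle release and of a few transcription factors. A list of 32 such pan-neuronal genes was followed here across 4 treatment groups of mouse ENS primary cultures, together with the spread of each gene between the arrays of a group. The list was taken as it stood and matched by gene symbol. A measured row was found for 31 of the 32 genes, each with 1 row, out of 22206 transcript clusters on the Clariom S array. Elavl2 had no row under that symbol here.

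ENS primary cultures were derived from the gut of embryos at e14.5, in a study that asked how inflammation and the thiopurine 6-mercaptopurine (6-MP) act on the enteric nervous system. Per the study's methods the mice were of a Sox10 flox line, and the cultures hold neurons and glia among other cells of the gut wall. All cultures were first grown in serum-containing medium and then in DMEM-HAMF12 with N2. Controls were left untreated, the 6-MP group received 50 µM 6-MP for 16 h, the LPS group 10 ng/ml bacterial lipopolysaccharide for 6 h, and the LPS+6-MP group 6-MP before LPS. Each group had 3 arrays from independent experiments.

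The enteric nervous system arises from neural crest cells that enter the gut, divide and become neurons or glia under Hand2, Sox10 and signals through Ret. A young neuron first makes RNA-binding proteins of the Hu family and the tubulin Tubb3, then extends a neurite with stathmins, doublecortin and neurofilaments, and later assembles the SNARE machinery that releases transmitter. Enteric neurons are known for peripherin, an intermediate filament of peripheral neurons, and for dense-core vesicles that store peptides with granins. LPS is sensed by Toll-like receptor 4, while 6-MP is a purine analogue used in inflammatory bowel disease.

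Each value was a log2 intensity of 1 transcript cluster. The medians of the arrays lay between 7.41 and 7.53, and the number of arrays limits the precision. The level of silent genes was set at 5.78, the 90th percentile of 1450 clusters for receptors of smell, pheromones and taste. Of the 31 measured pan-neuronal genes, 29 lay above it in all 12 arrays, Ntrk3 in 10 and Calb2 in 0. Markers of other cells were present too: in controls the mean log2 value was 12.44 over 10 genes of visceral smooth muscle, 12.85 over 9 of mesenchyme, 13.31 over 13 of the intestinal epithelium and 9.68 over 11 of macrophages. Of 9 measured genes of enteric glia, Sox10, S100b and Foxd3 lay under the silent level. The study's methods report glia in these cultures by antibody staining, as a larger share than neurons. Values under this level therefore do not mean that glia were absent. On principal component 2 of all clusters (25% of the variance) control 2, 6-MP 1, LPS 2 and LPS+6-MP 1 stood apart, with scores of 33.2 to 48.2 against -32.5 to -8.16 for the other 8 arrays. Component 3 (9.55% of the variance) in turn parted those 8, with scores of -28.7 to -17.8 for control 1, 6-MP 2, LPS 3 and LPS+6-MP 3 and of 18.4 to 24.5 for control 3, 6-MP 3, LPS 1 and LPS+6-MP 2. The arrays thus fell into 3 sets with 1 array of each group, which carry differing replicate numbers. The labels name no such sets, so no array was paired by them, and the SDs, SEs and overlaps given here include the differences between the sets. Results are therefore also given without these 4 arrays, which leaves 2 arrays in each group.

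Promoter windows from RefSeq (build GRCm38.p6, 250 bases before to 50 bases after the annotated start) were found for 20 of the 32 genes, with 33 windows in all. The windows of 3 genes are shown, picked by their values between arrays or by a shared word, and not by a change between groups. Scg2 had the widest spread between arrays of a group, Chgb is the other granin whose window holds the same word, and Prph followed the other pan-neuronal genes most closely. All 3 are written from 5′ to 3′ on the strand of the gene. Capitals mark the cAMP response element TGACGTCA, whose first base lies at position -68 from the start in Scg2 and at -72 in Chgb, and the TATA box TATAAA, which begins at -31 in Prph.
Scg2, chr1:79439977-79440276, minus strand: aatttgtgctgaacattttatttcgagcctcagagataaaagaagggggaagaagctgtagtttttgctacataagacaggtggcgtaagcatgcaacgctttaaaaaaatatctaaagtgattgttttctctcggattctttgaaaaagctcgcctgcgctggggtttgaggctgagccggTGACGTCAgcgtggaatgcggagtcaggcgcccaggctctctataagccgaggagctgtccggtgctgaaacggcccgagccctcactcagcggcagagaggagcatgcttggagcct
Chgb, chr2:132781392-132781691, plus strand: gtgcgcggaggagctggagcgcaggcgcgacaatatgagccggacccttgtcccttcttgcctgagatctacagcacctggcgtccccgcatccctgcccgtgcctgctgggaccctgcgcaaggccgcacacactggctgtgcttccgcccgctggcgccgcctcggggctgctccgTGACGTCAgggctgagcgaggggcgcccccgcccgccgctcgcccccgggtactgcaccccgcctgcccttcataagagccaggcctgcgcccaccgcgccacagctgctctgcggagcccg
Prph, chr15:99054924-99055223, plus strand: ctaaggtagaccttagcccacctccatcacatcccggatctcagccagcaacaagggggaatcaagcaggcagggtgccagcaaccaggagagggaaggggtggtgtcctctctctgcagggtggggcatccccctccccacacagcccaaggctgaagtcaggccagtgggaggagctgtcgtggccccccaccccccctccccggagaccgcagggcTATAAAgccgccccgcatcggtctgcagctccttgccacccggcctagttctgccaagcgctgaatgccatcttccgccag

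Both strands were searched, and no searched word contains another. The word TGACGTCA was in 2 of the 33 windows (6.06%) and in 1.79% of all 32851 windows of the same length. TATAAA was in 4 windows (12.1%, in Dcx, Elavl3 and Prph) against 13.6% of all. The GC box GGGCGG was in 19 windows (57.6%) against 35.7%, the CCAAT box CCAAT in 18 (54.5%) against 37.4%, the E-box CAGCTG in 9 (27.3%) against 16.3% and the homeodomain core TAATTA in 5 (15.2%) against 5.29%. Several windows belong to the same gene, so these shares count windows and not genes. A match is a description of the letters and not a site in use.

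The mean log2 value over the 31 measured genes was similar in 3 groups, with 9.51 ± 0.34 (SD, n = 3 arrays) in controls, 9.55 ± 0.48 with 6-MP and 9.52 ± 0.38 with LPS. In LPS+6-MP cultures it was 9.27 ± 0.36, and its difference from each other group was smaller than the SD between arrays of a group. That SD includes the differences between the 3 sets of arrays, so it cannot decide whether the LPS+6-MP mean was lower. Since a culture is measured as a whole, fewer neurons and less RNA per neuron cannot be told apart in any of these values. By array the mean was 9.20, 9.87 and 9.45 in controls 1 to 3, 10.09, 9.21 and 9.35 with 6-MP, 9.50, 9.91 and 9.15 with LPS, and 9.59, 9.34 and 8.89 with LPS+6-MP. The highest value in each group was that of the array standing apart, and the 4 groups overlapped.

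**Figure D1:**
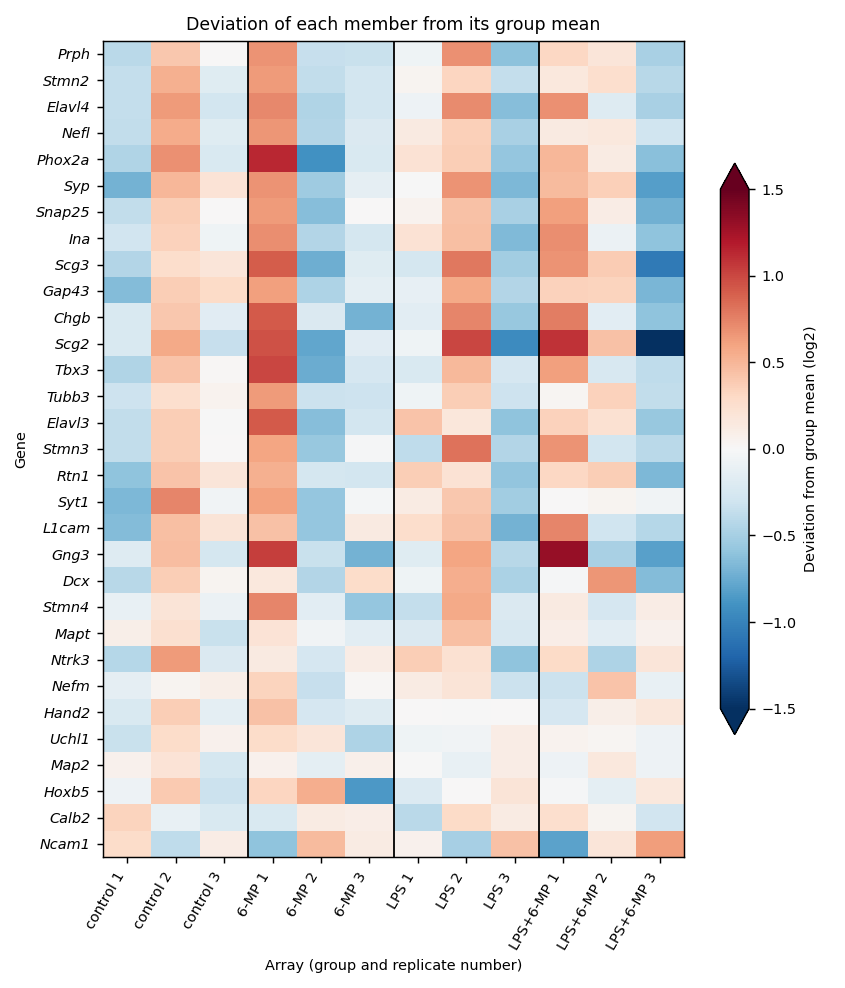
Deviation of each of the 31 pan-neuronal genes (rows) from its own group mean in each of the 12 arrays (columns), on the log2 scale, with red above and blue below the mean. Most rows are red in control 2, 6-MP 1, LPS 2 and LPS+6-MP 1 and blue in control 1, 6-MP 2, LPS 3 and LPS+6-MP 3, whereas Ncam1, in the last row, runs the other way.

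The neuronal RNA-binding proteins stabilise and splice transcripts in the cell body of neurons, and their RNA is a usual marker of a committed neuron. Elavl4, which encodes HuD, read 10.68, 11.68 and 10.76 in the 3 controls, 11.99, 10.82 and 11.00 with 6-MP, 11.01, 11.79 and 10.45 with LPS, and 11.79, 10.92 and 10.62 with LPS+6-MP. The highest array of each group was the one standing apart and the groups overlapped throughout, so that the change with LPS was 0.05 (SE 0.43, limma, adjusted p = 0.991). Elavl3, which encodes HuC, ranged from 6.80 in 6-MP 2 to 8.36 in 6-MP 1 and changed by 0.18 with LPS (SE 0.40).

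Among the genes of microtubules, Tubb3 is the neuronal tubulin, the stathmins Stmn2, Stmn3 and Stmn4 bind tubulin dimers, Dcx steadies microtubules in migrating neurons, and Mapt and Map2 line those of axons and dendrites. Stmn2 read 13.60, 14.49 and 13.77 in controls, 14.75, 13.75 and 13.84 with 6-MP, 13.89, 14.17 and 13.50 with LPS, and 13.88, 13.97 and 13.30 with LPS+6-MP. Control 2, 6-MP 1 and LPS 2 were the highest of their groups, LPS+6-MP 2 was slightly above LPS+6-MP 1, and no group was clear of another. Tubb3 averaged 11.14 ± 0.29 (SD, n = 3) in controls, 11.17 ± 0.55 with 6-MP, 11.33 ± 0.34 with LPS and 10.80 ± 0.36 with LPS+6-MP. Its difference of -0.53 between LPS+6-MP and LPS (SE 0.29, limma, unadjusted p = 0.0945) left both groups overlapping, because LPS+6-MP 2 at 11.14 lay above LPS 3 at 11.02. Stmn4 had the highest change with LPS of the 31 genes, 0.48 (SE 0.32), with 7.91, 8.22 and 7.94 in controls against 8.15, 9.07 and 8.29 with LPS. The 2 groups overlapped because control 2 lay above LPS 1, and the adjusted p was 0.774.

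Map2 differed from the other genes of this group in both its spread and its course. It read 10.01, 10.15 and 9.69 in controls, 10.05, 9.84 and 10.06 with 6-MP, 9.70, 9.59 and 9.81 with LPS, and 10.03, 10.27 and 10.03 with LPS+6-MP. All 3 LPS+6-MP arrays were above all 3 LPS arrays, by 0.41 on average (1.33-fold, SE 0.17, limma, unadjusted p = 0.0325, adjusted p = 1). The difference was 0.40 without the 4 arrays (SE 0.22, unadjusted p = 0.1). Its pooled SD within groups, 0.16, was the lowest of the 31.

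Neuronal intermediate filaments give axons their calibre, and the 4 genes of this group are the neurofilament subunits Nefl and Nefm, peripherin (Prph) and internexin alpha (Ina). Prph read 11.63, 12.44 and 12.04 in controls, 12.73, 11.72 and 11.73 with 6-MP, 12.04, 12.78 and 11.48 with LPS, and 12.05, 11.92 and 11.26 with LPS+6-MP. The group means lay between 11.74 and 12.10, a narrower range than that of the arrays within any 1 group, and the array standing apart was the highest in all 4.

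Ina had the largest decrease of any listed gene. It read 10.16, 10.80 and 10.39 in controls, 11.26, 10.12 and 10.30 with 6-MP, 10.54, 10.78 and 9.66 with LPS, and 10.44, 9.65 and 9.14 with LPS+6-MP. LPS+6-MP 2 and 3 were the lowest of the 12 arrays, but LPS+6-MP 1 lay within each other group. Against 6-MP the mean was 0.82 lower on the log2 scale (1.76-fold, SE 0.39, limma, unadjusted p = 0.0589, adjusted p = 0.479), and against LPS it was 0.59 lower (SE 0.39, unadjusted p = 0.162). Without the 4 arrays standing apart the decrease against 6-MP was also 0.82 (SE 0.31, unadjusted p = 0.0264, adjusted p = 0.303). In a fit with 2 principal components of the residuals as covariates, chosen after seeing the data, its SE fell to 0.18 and its adjusted p to 0.0194, where 5.27% of all clusters had an adjusted p under 0.05, while the change stayed under 2-fold. That fit gave 7 of the 31 genes, all lower, an unadjusted p under 0.05 against 6-MP, beside 19.6% of all clusters, and 7 (1 higher and 6 lower) against LPS, beside 8.63%. Its components were taken from the residuals of these same values, so every change stayed as it was. A lower SE for genes that follow the components was thus built in, and the p values of this fit give no separate support.

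Nefl read 7.97, 8.90 and 8.16 in controls, 9.11, 8.01 and 8.24 with 6-MP, 8.39, 8.61 and 7.77 with LPS, and 7.87, 7.90 and 7.44 with LPS+6-MP. The 3 LPS+6-MP arrays were all below the 3 controls and the 3 arrays with 6-MP alone but overlapped the LPS arrays. The difference from 6-MP was -0.72 (1.64-fold, SE 0.33, limma, unadjusted p = 0.0498, adjusted p = 0.447), and without the 4 arrays it was -0.45 (unadjusted p = 0.126). Nefm took another course. It read 7.24, 7.41 and 7.46 in controls and 7.17, 6.49 and 6.86 with 6-MP, so that the 2 groups did not overlap, though 6-MP 1 lay close to control 1. The other Nefm values were 7.40, 7.47 and 6.96 with LPS and 6.73, 7.47 and 6.94 with LPS+6-MP. Nefm was lower with 6-MP by 0.53 (1.45-fold, SE 0.24, limma, unadjusted p = 0.0435, adjusted p = 1), and by 0.68 without the 4 arrays (SE 0.26, unadjusted p = 0.03), whereas leaving out 6-MP 2 alone brought the unadjusted p to 0.18. After LPS the same 6-MP difference was -0.24 (SE 0.24), and the interaction of LPS and 6-MP, 0.30 (SE 0.33, unadjusted p = 0.392), did not show that the 2 differences differed.

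**Figure D2:**
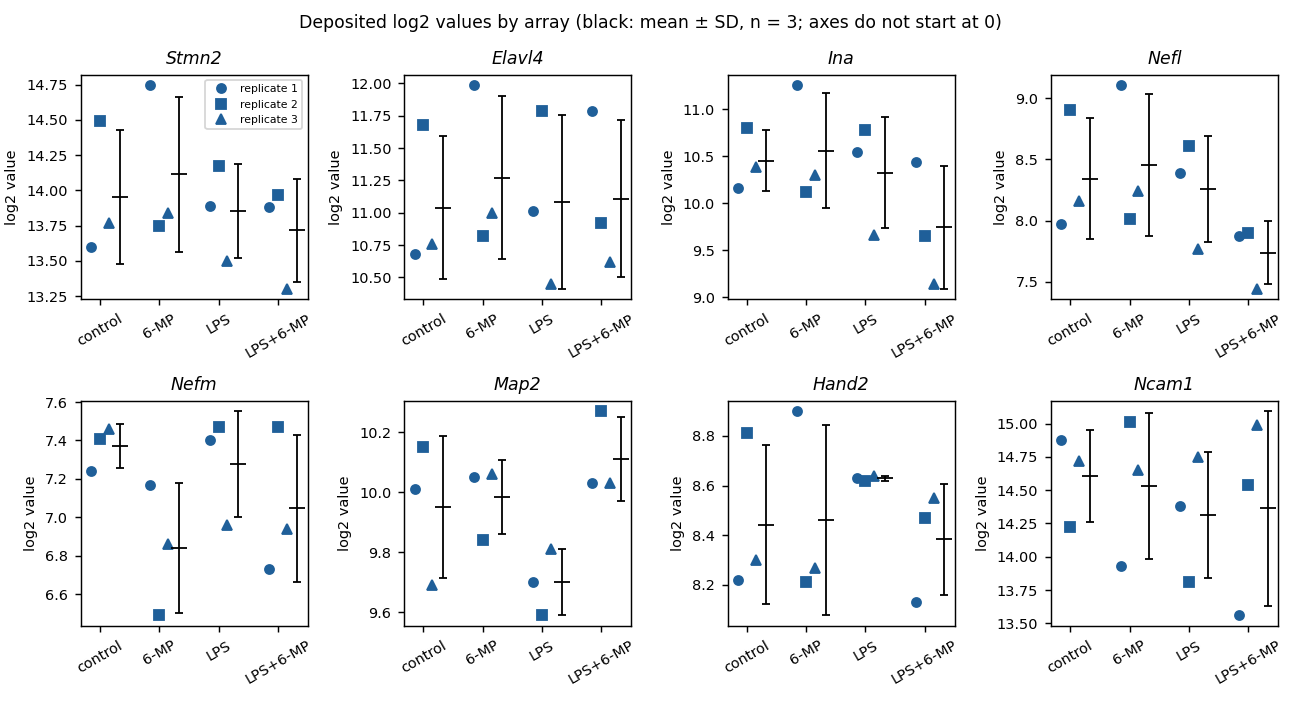
Deposited log2 values of 8 pan-neuronal genes in each array, by group, with the mean ± SD of 3 arrays in black and marker shapes for the replicate numbers of the labels; the axes do not start at 0. Nefm with 6-MP lay below controls, Nefl with LPS+6-MP below 6-MP and Map2 with LPS+6-MP above LPS, and the arrays of Ncam1 ran opposite to those of Stmn2, Elavl4 and Ina.

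Genes of growth cones, adhesion and membranes were Gap43, a growth cone phosphoprotein, the adhesion molecules L1cam and Ncam1, the neurotrophin receptor Ntrk3, the reticulon Rtn1 of the endoplasmic reticulum and the G protein gamma subunit Gng3. Gap43 ranged from 10.34 in LPS+6-MP 3 to 11.87 in 6-MP 1, L1cam from 8.92 to 10.37 in the same 2 arrays, and Rtn1 from 11.50 to 13.08, again in these arrays. None of the 6 passed the limit on p in any comparison, and the median of their changes ran from -0.34 for LPS+6-MP minus 6-MP to 0.01 for 6-MP minus control. Gng3 read 11.60, 12.26 and 11.53 in controls, 12.62, 11.25 and 10.88 with 6-MP, 11.47, 12.24 and 11.23 with LPS, and 12.57, 10.78 and 10.45 with LPS+6-MP. Its array standing apart exceeded the mean of the other 2 by 0.70 in controls and by 1.96 with LPS+6-MP, and its difference between LPS+6-MP and LPS was -0.38 (SE 0.55, limma, unadjusted p = 0.496), and -0.74 without the 4 arrays (SE 0.23, unadjusted p = 0.00958, adjusted p = 0.951).

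Ncam1 was the exception among the 31 genes. It read 14.88, 14.22 and 14.72 in controls, 13.93, 15.01 and 14.65 with 6-MP, 14.38, 13.81 and 14.75 with LPS, and 13.56, 14.54 and 14.99 with LPS+6-MP. In each group its lowest array was the one in which most of the other genes were highest. The adhesion molecule NCAM is also known from mesenchymal and muscle cells, and the means of the 10 smooth muscle genes and the 9 mesenchyme genes were lower in the same 4 arrays, by at least 0.97 and at least 0.39 on the log2 scale. Their part in the Ncam1 values was not tested.

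Among the vesicle genes, Snap25 is a SNARE protein of the presynaptic membrane, Syt1 the calcium sensor of release, Syp a glycoprotein of synaptic vesicles, and Scg2, Scg3 and Chgb are granins of dense-core vesicles. Scg2, whose promoter window is printed above, read 8.26, 9.06 and 8.14 in controls, 9.39, 7.65 and 8.26 with 6-MP, 8.25, 9.31 and 7.37 with LPS, and 8.98, 8.33 and 6.37 with LPS+6-MP. Its 4 highest values were those of the 4 arrays standing apart, and its pooled SD of 0.98 was the highest of the 31. Its differences between groups, from -0.54 for LPS+6-MP minus 6-MP to -0.05 for 6-MP minus control, each had an SE of 0.66. Chgb, with the same word in its window, had its 4 highest values in the same 4 arrays, 8.29, 8.98, 8.77 and 8.64, and stayed between 7.27 and 7.88 in the others. Snap25 read 9.42, 10.15 and 9.79 in controls, 10.36, 9.09 and 9.73 with 6-MP, 9.77, 10.16 and 9.23 with LPS, and 9.83, 9.33 and 8.50 with LPS+6-MP. The groups overlapped, and its differences of -0.50 from LPS and -0.50 from 6-MP (SE 0.39 each) did not pass the limit on p. Syt1, Syp and Scg3 varied over 1.52, 1.99 and 2.34 on the log2 scale between their lowest and highest arrays.

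Uchl1, a ubiquitin hydrolase abundant in neurons, varied little, with 10.63 ± 0.30 (SD, n = 3) in controls, 10.43 ± 0.40 with 6-MP, 10.84 ± 0.10 with LPS and 10.73 ± 0.07 with LPS+6-MP. The gene for the calcium binder calretinin, Calb2, which marks a subset of enteric neurons, stayed between 4.26 and 5.18, under the silent level in every array, so that its differences lie where silent genes lie. Its difference with LPS was 0.41 (SE 0.23, limma, adjusted p = 0.705).

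The 4 transcription factors were Phox2a and Hand2, which act in the making of autonomic and enteric neurons, the T-box factor Tbx3 and the homeobox factor Hoxb5. Phox2a read 6.49, 7.62 and 6.71 in controls, 8.14, 6.11 and 6.79 with 6-MP, 7.17, 7.32 and 6.38 with LPS, and 7.53, 7.16 and 6.41 with LPS+6-MP. Its group means lay within 6.94 to 7.03, beside a pooled SD of 0.71. Hand2 read 8.63, 8.62 and 8.64 with LPS and 8.13, 8.47 and 8.55 with LPS+6-MP. These 2 groups did not overlap, and the difference was -0.25 (SE 0.22, limma, unadjusted p = 0.295). The SD was 0.01 with LPS and 0.23 with LPS+6-MP, and the controls (8.22, 8.81 and 8.30) and the 6-MP arrays (8.90, 8.21 and 8.27) enter the same error. In a fit of the 2 compared groups alone Hand2 did not reach an unadjusted p under 0.05 either. Tbx3 ranged from 7.72 to 9.64 and Hoxb5 from 6.66 to 8.07, both highest with 6-MP alone, in 6-MP 1 and 6-MP 2 respectively. Hand2, Tbx3, Hoxb5, Ncam1 and Calb2 are also known from mesenchyme, muscle or mesothelium.

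LPS against control asks whether inflammation alone changed the neuronal genes. A gene was called in limma when its adjusted p was under 0.05 and its change at least 2-fold, and 0 of the 31 genes were called, beside 1.6% of all 22206 clusters. At an unadjusted p under 0.05 there were also 0, beside 9.01% of all clusters, or 2.49% with a fold of at least 2. The changes ran from -0.29 for Ncam1 to 0.48 for Stmn4, with 15 of 31 below 0, beside 56.6% of all clusters, and a median of 0.02, where that of all clusters was -0.04. In 0 of the 31 genes did the 3 LPS arrays lie clear of the 3 controls, beside 15.1% of all clusters. The 95% interval lay within a 2-fold change in either direction for 18 of the 31 genes and for 79.3% of all clusters, so for the other genes a 2-fold change lay within the interval. Without the 4 arrays standing apart the median was -0.01, with 17 genes below 0. Single arrays moved that count widely: it was 4 without control 2, 2 without LPS 3, 22 without control 1 and 23 without LPS 2. Leaving out 1 array unbalances the 3 sets between the groups, here and in the comparisons below. Such counts therefore include the differences between the sets. In the same arrays all 13 measured interferon-stimulated genes were higher with LPS. Of them 10 were called, among them Mx1 by 3.28 (SE 0.53, limma, adjusted p = 0.00501). Markers of other cells moved with LPS too. Macrophage genes were below 0 in 8 of 11 (median -0.69). Of them Cx3cr1 was called, with a mean of 6.93 in controls and 4.19 with LPS. Its LPS mean and its mean over all 12 arrays, 5.5, lay under the silent level. At an unadjusted p under 0.05 in limma, 6 macrophage genes were lower and 2 were higher. Genes of dividing cells were below 0 in 9 of 9, endothelial genes in 6 of 6 and epithelial genes in 11 of 13. Glial genes were below 0 in 4 of 9 (median 0.01) and smooth muscle genes in 5 of 10 (median -0.03). The mean over the 9 glial genes was 7.44 in controls (arrays from 7.13 to 7.69) and 7.20 with LPS (7.05 to 7.32). Of these glial genes 2 had an unadjusted p under 0.05 in limma, both lower, beside 9.01% of all clusters. The part of these cells in the neuronal values was not tested.

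The comparison of 6-MP with control shows the drug alone, with the same control arrays. None of the 31 genes was called, beside 0% of all clusters. Nefm was the 1 gene with an unadjusted p under 0.05, beside 2.13% of all clusters (0.063% with a fold of at least 2, which Nefm did not reach), and the 1 gene whose groups did not overlap, beside 5.91% of all clusters. The median change was 0.07, against 0.01 over all clusters, and 11 genes were below 0, beside 48.6% of all clusters. The changes ran from -0.53 for Nefm to 0.37 for Stmn4, and 19 genes had an interval within 2-fold, beside 86.4% of all clusters. The median was -0.06 and 17 genes were below 0 when the 4 arrays were left out. That count was 22 without control 1, 4 without control 2, 25 without 6-MP 1, 6 without 6-MP 2 and 7 without 6-MP 3.

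Pretreatment with 6-MP under LPS was compared with LPS alone. No gene was called, beside 0% of all clusters, and Map2, which was higher, was the 1 gene with an unadjusted p under 0.05, beside 3.6% of all clusters, or 0.117% with a fold of at least 2, which Map2 did not reach. The groups did not overlap for Map2 and for Hand2, which was lower, beside 8.29% of all clusters in both directions. Of the 31 differences 27 were below 0, beside 49.3% of all clusters, with a median of -0.25 against 0.00. The exceptions were Map2, Phox2a, Ncam1 and Elavl4, and 12 of the 31 intervals lay within 2-fold, beside 83.5% of all clusters. Genes that rise and fall together between arrays do not count as separate observations, and no test was made of the 27. Leaving out LPS 2 alone, which unbalances the sets, brought the count to 19 and the median to -0.08. Without the 4 arrays 23 differences were below 0 and the median was -0.17, and 2 genes, both lower, had an unadjusted p under 0.05, beside 5.09% of all clusters. Markers of other cells moved in part. The mean over 9 glial genes was 7.20 with LPS (arrays from 7.05 to 7.32) and 6.97 with LPS+6-MP (6.86 to 7.03), without overlap. Only 6 of the 9 glial genes were below 0 (median -0.2), among them Fabp7, which averaged 9.32 with LPS and 8.33 with LPS+6-MP. Of the genes of dividing cells 9 of 9 were below 0, and of the epithelial genes 12 of 13, beside 49.3% of all clusters. These counts were 9 of 9 and 11 of 13 with LPS against control, and 9 of 9 and 12 of 13 with 6-MP against control. Smooth muscle genes were below 0 in 8 of 10 (median -0.04) and mesenchyme genes in 3 of 9 (median 0.04). No gene of these lists was called in LPS+6-MP minus LPS. Their part in the neuronal values was not tested.

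LPS+6-MP against 6-MP alone shows LPS in the presence of the drug and shares its LPS+6-MP arrays with the comparison before. Again 0 of the 31 genes were called, beside 1.44% of all clusters. Nefl had an unadjusted p under 0.05, beside 11.2% of all clusters (2.46% with a fold of at least 2, which Nefl did not reach), and was the 1 gene whose groups did not overlap, beside 14.8% of all clusters. The differences ran from -0.82 for Ina to 0.30 for Uchl1, with 27 of 31 below 0, beside 54.5% of all clusters, and a median of -0.32 against -0.03. Only 9 genes had an interval within 2-fold, beside 77.3% of all clusters. Without the 4 arrays the median was -0.14, with 22 below 0. Leaving out 6-MP 1 alone, which unbalances the sets, brought the median to -0.04, with 16 below 0. Markers of other cells moved in the same comparison: the mean over 9 glial genes was 7.46 with 6-MP (arrays from 7.18 to 7.65) and 6.97 with LPS+6-MP (6.86 to 7.03). The median change of the glial genes was -0.18, with 7 of 9 below 0. Of them 2 were called, beside 1.44% of all clusters: Fabp7, lower by 1.69 (SE 0.38, limma, adjusted p = 0.0436), and Cdh19, lower by 1.12 (SE 0.24, adjusted p = 0.0382). Without the drug Fabp7 averaged 10.65 in controls and 9.32 with LPS, and Cdh19 8.76 and 7.78, though neither was called there. Gfra2, the glial gene with the highest mean, averaged 10.41 with 6-MP and 10.38 with LPS+6-MP. The mean over 9 genes of dividing cells was 11.34 (10.94 to 11.65) and 10.91 (10.50 to 11.18), and that over 13 epithelial genes 13.21 (12.91 to 13.70) and 12.76 (12.18 to 13.64). Their part in the neuronal values was not tested.

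The interaction asks whether LPS acted differently with and without 6-MP. It was called for 0 of the 31 genes, beside 0% of all clusters, and 0 had an unadjusted p under 0.05, beside 1.95% of all clusters, or 0.302% with a fold of at least 2. The interaction was below 0 for 27 genes, beside 51.8% of all clusters, from -0.73 for Stmn4 (SE 0.45) to 0.37 for Map2 (SE 0.24), with a median of -0.31 against -0.01 over all clusters. It was below 0 for 23 genes, with a median of -0.16, when the 4 arrays were left out. It was below 0 for 17 without 6-MP 1 alone (median -0.04) or without LPS 2 alone (median -0.13), each of which unbalances the sets. These counts draw on the same LPS+6-MP arrays as the 2 comparisons before, and the genes vary together between arrays. They are therefore no separate observation, and no test was made of them. Only 4 genes had an interval within 2-fold, beside 57.7% of all clusters, as the median SE of an interaction was 0.53 where that of a single comparison was 0.37. Exact permutation of 3 arrays against 3 cannot give a p under 0.1, so p values of single genes came from limma. The methods' t-test, which the study does not state for the arrays, called 0 of the genes after adjustment in the 4 comparisons of groups. It gave 0 of all clusters an adjusted p under 0.05 there, so this count says nothing particular of the neuronal genes. At its unadjusted threshold without a limit on the fold it took Map2 in LPS+6-MP minus LPS, beside 3.97% of all clusters.

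**Figure D3:**
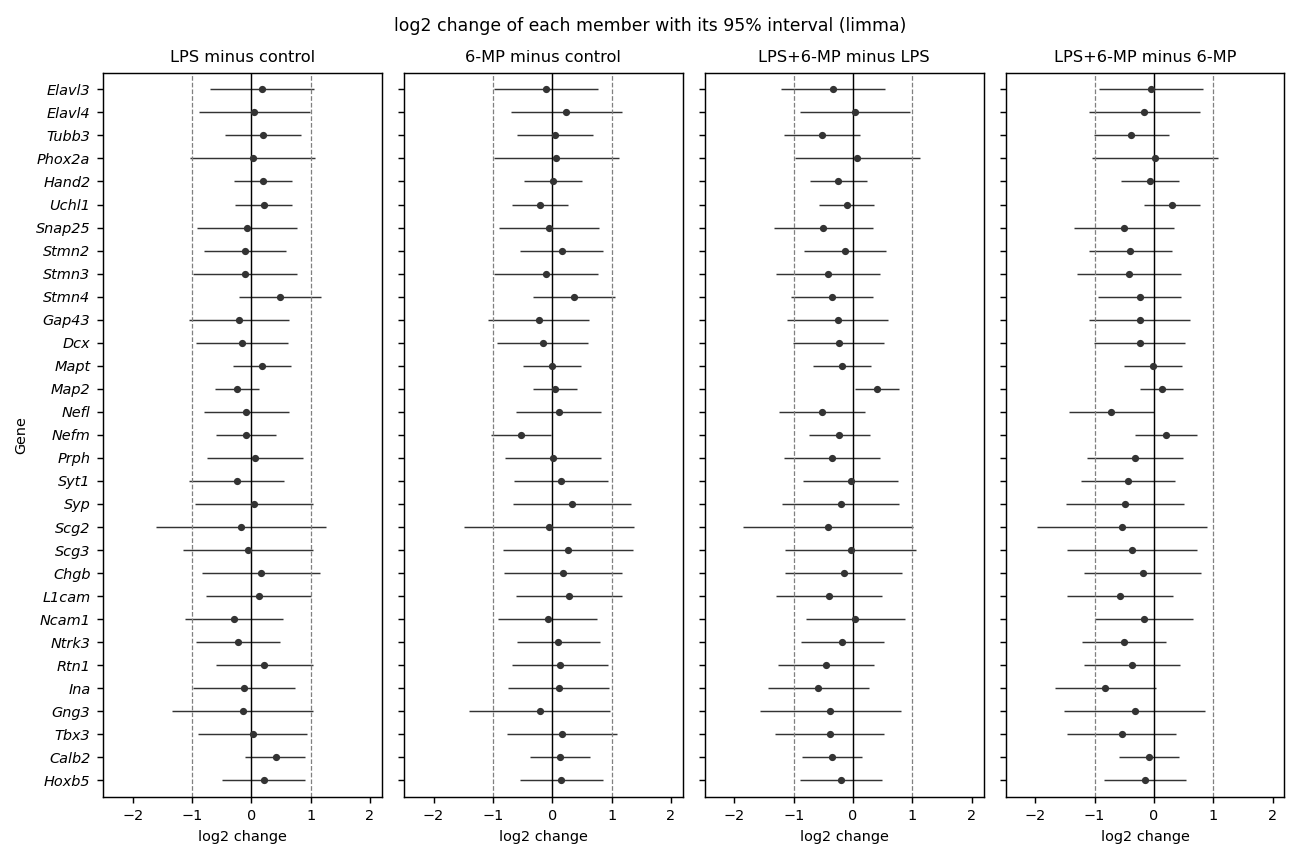
Change of each of the 31 pan-neuronal genes on the log2 scale in the 4 comparisons of groups, with its 95% interval from limma; dashed lines mark a 2-fold change. Most intervals cross 0, and the points lie mostly left of 0 in the 2 panels with LPS+6-MP, where 27 of 31 are below 0.

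The largest differences among the values of these genes lay between arrays of the same group. The median pooled SD within groups was 0.528 over the 31 genes and 0.29 over all clusters, and 24 of the 31 were above 0.407, the 75th percentile of clusters over the silent level. Of the 31 genes 28 were highest of their group in control 2, 26 in 6-MP 1, 23 in LPS 2 and 20 in LPS+6-MP 1, where 34.5%, 34.5%, 38.7% and 37.4% of all clusters were highest. In 16 genes, among them Elavl4, Prph, Snap25 and all 3 granins, this held in all 4 groups, beside 8.84% of all clusters. Another array of each group was the low one: 24 genes were lowest in control 1, 22 in 6-MP 2, 24 in LPS 3 and 23 in LPS+6-MP 3, and 17 in all 4, beside 3.51% of all clusters. Without the 4 arrays standing apart the median pooled SD was 0.296, against 0.239 over clusters above the silent level.

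After each group's mean was taken away, the genes were set against the mean of the other listed genes over the 12 arrays, as a description of values that share arrays and normalization. Pearson's r had a median of 0.88, and it was at least 0.9 for 15 of the 31 genes, where 0.955% of all clusters reached this against the mean of the listed genes. Prph had 0.98, Stmn2 and Elavl4 0.96 and Tbx3 0.91. Map2 (0.14) and Hoxb5 (0.12) varied on their own, and r was below 0 for Calb2 (-0.08) and Ncam1 (-0.94).

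Markers of other cells moved with the same arrays. In control 2, 6-MP 1, LPS 2 and LPS+6-MP 1, in that order, the mean over the pan-neuronal genes was 0.54, 0.81, 0.59 and 0.47 higher than in the other 2 arrays of the group. The smooth muscle list differed by -0.97, -1.36, -1.09 and -1.33, the mesenchyme list by -0.39, -0.97, -0.45 and -0.73 and the macrophage list by -0.50, -0.37, -0.45 and -0.46. Interferon-stimulated genes differed by 1.72, 2.69, 1.27 and 0.93, the epithelial list by 0.30, 0.73, 0.83 and 1.33, and the glial list by 0.37, 0.29, 0.03 and 0.08. The neuronal, epithelial and interferon lists were thus higher, and the muscle, mesenchyme, macrophage and dividing-cell lists lower, in all 4 arrays. The part of these cells in the neuronal values was not tested.

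**Figure D4:**
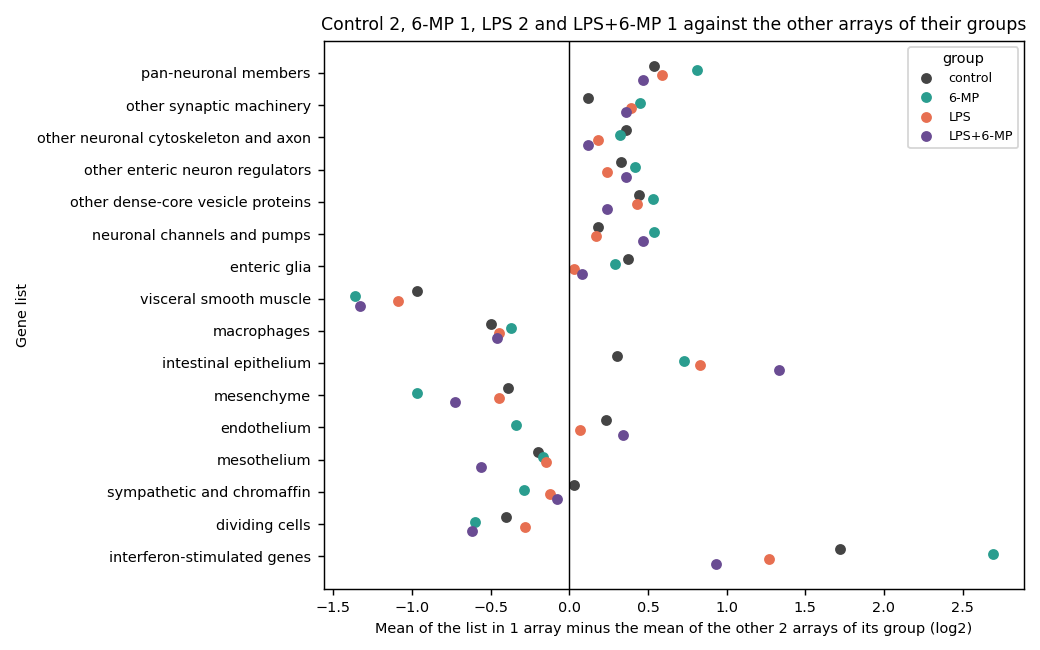
Mean log2 value of each gene list in the array standing apart minus its mean in the other 2 arrays of that group, with 1 point for each of the 4 groups. The pan-neuronal genes and the other neuronal lists lie right of 0, smooth muscle, mesenchyme and dividing cells lie left of 0, and interferon-stimulated genes reach farthest right, at 2.69 with 6-MP.

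Other neuronal genes, from 5 further lists, were looked at in the same way. None of 18 measured genes of synaptic machinery, 16 of the neuronal cytoskeleton and axon, 12 enteric neuron regulators, 8 dense-core vesicle proteins and 9 channels and pumps was called in any comparison. At an unadjusted p under 0.05 there were 3 genes with LPS (1 lower of the cytoskeleton, 1 higher of dense-core vesicles and 1 lower of the channels), beside 9.01% of all clusters, and 4 in LPS+6-MP minus 6-MP (3 lower of the cytoskeleton and 1 higher of dense-core vesicles), beside 11.2%. With 6-MP alone there were 1 higher gene of the synaptic list and 1 lower regulator, beside 2.13% of all clusters. LPS+6-MP minus LPS had 1 lower gene of the cytoskeleton, beside 3.6%, and the interaction 1 lower gene of the synaptic list, beside 1.95%. Between LPS+6-MP and 6-MP the medians of these lists were -0.20, -0.20, -0.11, -0.08 and -0.17. With LPS alone they were -0.04, 0.04, 0.00, 0.04 and -0.01. The receptor tyrosine kinase gene Ret averaged 9.42 in controls, 9.55 with 6-MP, 9.23 with LPS and 8.81 with LPS+6-MP, whereas Vamp2, the SNARE protein of synaptic vesicles, averaged 10.22, 10.35, 10.12 and 10.48. Of the regulators, Insm1, Insm2, Tlx2, Myt1l, Celf4 and Rbfox3 had means under the silent level.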

How the data were processed

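RNA of 12 ENS primary cultures was hybridised to Clariom S arrays, 3 per group. The Transcriptome Analysis Console 4.0.1.36 was the authors' software, and 1 log2 value per array and transcript cluster was deposited, which was analysed as it stands. Normalization, summarisation and genome build are not given in the sources used here, so a scaling between arrays done before deposit could hide a shift shared by most genes. Of 28846 entries, 6640 control entries were left out, which left 22206 clusters (19572 with 1 gene symbol in GEO's platform annotation, 2634 without). Values ran from 2.61 to 18.79.

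Groups follow the treatment in the labels. With R 4.3.3, limma 3.58.1 was fitted to the 4 group means of all clusters (8 residual and 4.25 prior degrees of freedom), with Benjamini-Hochberg adjustment over all 22206 clusters. Counts at an unadjusted p under 0.05, with and without a fold of at least 2, stand beside the calls because the methods word their threshold as a p-value. Every member could be named. Of other lists up to 3 genes with the highest mean and any called gene could be named, and up to 10 clusters with the pattern most like that of the members. The members and lists were chosen with earlier results of these data known. The arrays are from independent experiments per the study's methods, and the labels tie no array to an animal.

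Alternatives tried were fitting the compared groups alone, a replicate block, an intensity trend, median centring, quantile normalization, dim clusters or those without 1 symbol left out, the methods' t-test, the other kind of p, no limit on the fold, each array left out, and the 4 arrays standing apart left out. Covariates from 2 residual components, and a median without members that are dim or known from other cells, were added after seeing the data. Fits were tested on simulated data. Python 3.11.15, pandas 2.3.3, numpy 2.4.6 and matplotlib 3.10.9 were used for descriptions and plots.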

Additional observations from a re-analysis of the deposited data

How the results depend on the processing

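The count of pan-neuronal genes called by adjusted p and fold was 0 in all 5 comparisons under every alternative run, with and without single arrays. At an unadjusted p and the same fold it was 0 with all arrays, and 1 in 4 cases with an array left out, all lower. Gng3 passed in LPS+6-MP minus LPS without LPS+6-MP 1, beside 204 of all 22206 clusters. Ina passed in LPS+6-MP minus 6-MP without 6-MP 2, beside 646 clusters, or without LPS+6-MP 1, beside 935. Stmn4 passed in the interaction without 6-MP 3, beside 99 clusters. Without a limit on the fold, Ina in LPS+6-MP minus 6-MP passed an adjusted p under 0.05 in the fit with 2 residual components as covariates (adjusted p = 0.0194), which was chosen after seeing the data and lowers the SE of such genes by its making, and in no other alternative, where the lowest adjusted p of any member in that comparison was 0.207.

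Leaving out single arrays moved the median change from -0.23 to 0.23 for LPS minus control, from -0.22 to 0.23 for 6-MP minus control, from -0.48 to -0.08 for LPS+6-MP minus LPS, from -0.48 to -0.04 for LPS+6-MP minus 6-MP and from -0.55 to -0.04 for the interaction. Each such fit unbalances the sets of arrays between the groups, so these ranges include the differences between the sets. Other settings kept the last 3 medians below 0 (-0.25 to -0.17, -0.34 to -0.14 and -0.30 to -0.16) and put the first 2 between -0.07 and 0.09. The median pooled SD of the members was 0.30 without the 4 arrays standing apart. Of the 31 genes, 23, 28, 15, 17 and 15 changed sign under some alternative in the 5 comparisons.

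Of 18 pairs of arrays with the same replicate number, 6 correlated above 0.1 after group means were removed (r from -0.45 to 0.60), and the closest array of another group had the same number in 8 of 36 cases, so the numbers do not pair the arrays. The 3 sets seen on components 2 and 3, each with 1 array of every group, run across these numbers. The replicate block gave 0 called members in every comparison, as without it. At 3 arrays a group the standard errors of single genes reached 0.66, which limits what could be detected. Dim genes such as Calb2, and cell types that vary between cultures, limit what a value says of neurons.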

Other observations

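The clusters whose values over the 12 arrays, after removal of group means, were most like the mean of the pan-neuronal genes were Scg5 (Pearson r = 0.983), which encodes a secretory granule chaperone, Zfp804a (0.98), Metrnl (0.979), Hint3 (0.977), St8sia3 (0.976), a sialyltransferase gene, Fstl5 (0.976), Plppr5 (0.976), Khnyn (0.975), and the alpha-defensin genes Defa3 and Defa17 (0.972 each). Defa3 and Defa17 had the same values in every group mean (9.13 in controls, 9.36 with 6-MP, 9.12 with LPS and 9.08 with LPS+6-MP), and are counted as 1 observation. The r values describe arrays that share processing and carry no test. In the 4 arrays that stood apart Scg5 was higher than in the others of its group by 0.96 in controls, 1.75 with 6-MP, 1.52 with LPS and 0.82 with LPS+6-MP, and Defa3 by 0.71, 1.42, 1.12 and 0.57. Scg5 averaged 8.36 in controls, 8.41 with 6-MP, 8.32 with LPS and 7.59 with LPS+6-MP.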
